A study of Homo sapiens with 35 samples.

Results

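JNJ, a compound known from the labels by this code name alone, was compared with its absence in cells that all received CHIR for 6 h. The comparison takes the 2 bulk libraries labelled JNJ+CHIR against 4 JNJ-free libraries, 2 labelled CHIR and 2 labelled BRD+CHIR, so it uses 6 of the 35 samples of the series. Members were chosen by treatment and time in the labels and not by any measured value.

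The study differentiates the H1 line of human embryonic stem cells toward definitive endoderm, the germ layer that gives rise to gut, liver and pancreas. CHIR99021, shortened to CHIR, inhibits the kinase GSK3 and so activates Wnt signalling, and the growth protocol gives it at 3 µM on day 1 together with Activin A at 100 ng/ml. Activin A was swapped for other agents in particular experiments, so the JNJ+CHIR, CHIR and BRD+CHIR arms carry no Activin A by their treatment labels, and doses of JNJ and of BRD, another code name, were not given in the sources used here. All 6 libraries are of unsorted cells of the H1 line. Libraries with no agent and with Activin A plus CHIR (AA+CHIR), 2 each at 6 h from the same numbered library series, are given as reference. Nothing in the labels says that replicates came from separate cultures, so p-values measure only the spread between these libraries, which may be technical.

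Cells sense oxygen through enzymes that use oxygen, iron and 2-oxoglutarate. The prolyl hydroxylases EGLN1, EGLN2 and EGLN3 mark the alpha subunits of the hypoxia-inducible factors (HIF) for destruction by the VHL ubiquitin ligase. When that marking slows, HIF accumulates, pairs with ARNT and binds DNA at a core of ACGTG or GCGTG. Its textbook targets move glucose into glycolysis, hold back mTOR complex 1, promote mitophagy and include several hydroxylases and demethylases of the same enzyme class.

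The 3 genes that mark the comparison, DDIT4, BNIP3 and KDM3A, are textbook HIF targets, and the 250 bases before their RefSeq start sites (GRCh38.p14) are shown for that reason. Capitals mark ACGTG and the related GCGTG, on either strand, and positions count back from -1 at the base before the start. DDIT4 is read on the plus strand at chr10:72273674-72273923, BNIP3 on the minus strand at chr10:131981924-131982173, and KDM3A on the plus strand at chr2:86441121-86441370, the upstream one of its 2 listed starts.
DDIT4: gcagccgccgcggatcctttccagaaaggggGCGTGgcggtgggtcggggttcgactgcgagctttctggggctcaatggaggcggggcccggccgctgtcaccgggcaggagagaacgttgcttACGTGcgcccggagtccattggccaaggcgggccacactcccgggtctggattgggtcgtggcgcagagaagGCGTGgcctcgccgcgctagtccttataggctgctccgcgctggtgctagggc
BNIP3: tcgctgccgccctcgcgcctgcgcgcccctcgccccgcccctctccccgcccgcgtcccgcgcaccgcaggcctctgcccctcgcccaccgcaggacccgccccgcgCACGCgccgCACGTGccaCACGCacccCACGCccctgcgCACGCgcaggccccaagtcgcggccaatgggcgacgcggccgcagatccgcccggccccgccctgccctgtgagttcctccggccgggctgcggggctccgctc
KDM3A: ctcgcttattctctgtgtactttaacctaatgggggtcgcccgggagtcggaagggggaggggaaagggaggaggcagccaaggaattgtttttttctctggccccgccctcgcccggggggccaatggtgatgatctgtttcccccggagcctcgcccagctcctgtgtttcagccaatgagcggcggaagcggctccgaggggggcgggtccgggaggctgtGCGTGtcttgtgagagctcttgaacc
The DDIT4 stretch holds 1 ACGTG, at -125 from the start, and 2 GCGTG, at -219 and -53. In BNIP3, 2 ACGTG matches are the strands of 1 palindrome CACGTG at -134, and 4 GCGTG lie on the strand opposite to the one shown, between -143 and -104. KDM3A holds 1 GCGTG, at -26, and no ACGTG in this window. Such matches are common: of 35116 RefSeq windows of this length, 18.5% hold ACGTG and 32.2% GCGTG on either strand, and 43.2% hold at least 1 of them. CACGTG, which contains ACGTG, occurs in 6.3%. These shares are not matched for base composition. The windows shown are 68.8% (DDIT4), 81.6% (BNIP3) and 62.4% (KDM3A) G or C, against a median of 58.0% over all windows. These are matches of letters, and binding was not measured.

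JNJ raised a small set of genes at 6 h. DDIT4, BNIP3, KDM3A and HK2 passed the test as higher, by 1.46-fold to 2.23-fold, and all 4 are textbook HIF targets. HTD2 and RIMBP3 passed as lower, and neither call held once reads were summed with an overlapping or near-identical gene. Genes of pluripotency, Wnt and Nodal signalling and the primitive streak gave no call. The test was edgeR's quasi-likelihood test with Benjamini-Hochberg adjustment over 14780 genes, in a fit of the 10 libraries of the same series, contrasting JNJ+CHIR with the mean of the CHIR and BRD+CHIR group means. It called 6 genes, 0.0406% of those tested (0.0271% higher, 0.0135% lower), while 681 genes (4.61%) had an unadjusted p under 0.05. Levels are CPM, counts per M (mega) counts of a library after TMM scaling.

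**Figure D1:**
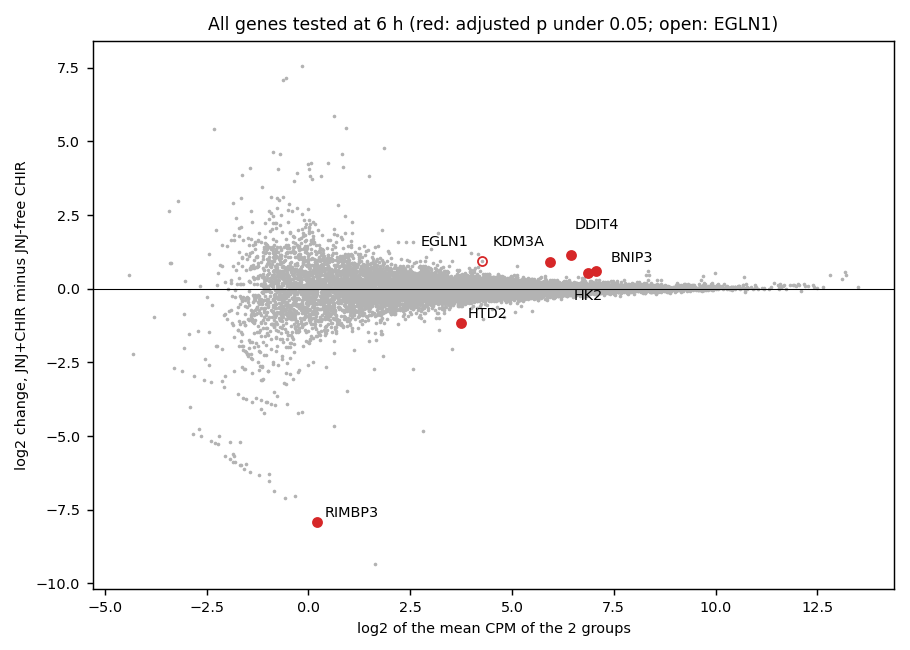
Log2 change with JNJ at 6 h (vertical axis) against the log2 mean CPM of the 2 groups (horizontal axis) for the genes tested that had counts in these libraries. Red points passed an adjusted p of 0.05, and the open circle is EGLN1. DDIT4, KDM3A, BNIP3 and HK2 stand above a cloud that is narrow at their level, while RIMBP3 sits in the wide scatter of low counts.

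DDIT4 (chromosome 10, 72273920 to 72276036, GRCh38, GENCODE 29) encodes an inhibitor of mTOR complex 1 that acts through the TSC complex. It stood at 121 and 119 CPM in the JNJ+CHIR libraries, at 59.6 and 50.7 CPM with CHIR, and at 56.5 and 48.6 CPM with BRD+CHIR. The groups did not overlap, and the CHIR and BRD+CHIR libraries interleaved. The means were 119.9 ± 1.41 (SD, n = 2) against 53.9 ± 5.08 CPM (SD, n = 4), a log2 change of 1.15 ± 0.11 (SE), with an adjusted p of 2.83e-05. Cells with no agent had 37.6 and 38.4 CPM and AA+CHIR cells 91.8 and 69.2 CPM, so both JNJ+CHIR libraries were also above all 4 of these.

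BNIP3 (chromosome 10, 131966455 to 131982013) encodes a mitochondrial outer membrane protein that recruits mitochondria to autophagy. Its levels were 155 and 165 CPM with JNJ+CHIR, 105 and 118 CPM with CHIR, and 100.1 and 103 CPM with BRD+CHIR. Every JNJ+CHIR value lay above every JNJ-free value, and the AA+CHIR libraries, at 103 and 105 CPM, fell among the JNJ-free ones. BNIP3 rose by 0.59 ± 0.08 on the log2 scale (160.1 ± 6.84 against 107 ± 8.06 CPM, adjusted p = 0.00216). Against CHIR alone the log2 change was 0.52 with an adjusted p of 0.0567, which ends the call.

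KDM3A (chromosome 2, 86440647 to 86492716) is a histone H3 lysine 9 demethylase that itself needs oxygen, iron and 2-oxoglutarate. It measured 78.8 and 79.9 CPM in JNJ+CHIR cells, 34.2 and 40.4 CPM in CHIR cells and 53.9 and 42.9 CPM in BRD+CHIR cells. The JNJ+CHIR libraries were nearly equal and above all others, while both BRD+CHIR libraries were above both CHIR libraries. The log2 change was 0.90 ± 0.12 (79.4 ± 0.768 against 42.9 ± 8.21 CPM, adjusted p = 0.00296). The change depended on which control group was used: 1.09 against CHIR alone (adjusted p = 0.00424) and 0.71 against BRD+CHIR alone (adjusted p = 0.155). The control groups differed by 0.38, which was not called. Cells with no agent had 57.7 and 43.7 CPM, above both CHIR libraries and overlapping the BRD+CHIR ones, and AA+CHIR cells had 46.1 and 42.6 CPM. Without JNJ+CHIR replicate 1 the change was 0.91 with an adjusted p of 0.0520.

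HK2 (chromosome 2, 74833981 to 74893359), the hexokinase that traps glucose for glycolysis and binds mitochondria, was also called as higher. It stood at 127 and 150.5 CPM with JNJ+CHIR, at 101 and 93.5 CPM with CHIR, and at 86.7 and 97.8 CPM with BRD+CHIR. The groups did not overlap, but the JNJ+CHIR pair was wider apart than for the other 3 genes. A log2 change of 0.55 ± 0.09 was measured (138.8 ± 16.5 against 94.9 ± 6.30 CPM, adjusted p = 0.0243). This call was lost without JNJ+CHIR replicate 2 (0.42, adjusted p = 0.292), CHIR replicate 1 (0.58, adjusted p = 0.0812), CHIR replicate 2 (0.52, adjusted p = 0.109) or BRD+CHIR replicate 1 (0.51, adjusted p = 0.158), and against either control group alone (0.51, adjusted p = 0.295 for CHIR, and 0.59, adjusted p = 0.0641 for BRD+CHIR).

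**Figure D2:**
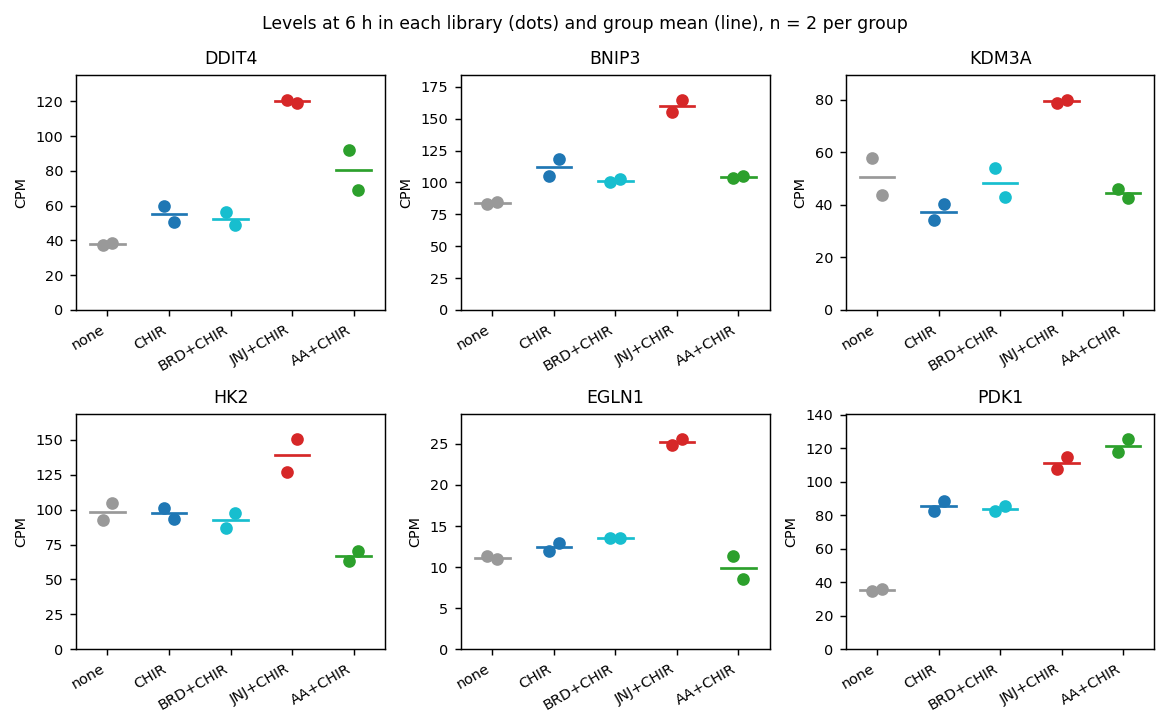
CPM (vertical axis, from 0) of 6 genes in each 6 h library (dots) with the group mean (line), for cells with no agent, CHIR, BRD+CHIR, JNJ+CHIR and AA+CHIR, 2 libraries each. The JNJ+CHIR dots lie above the CHIR and BRD+CHIR dots in every panel, and for PDK1 the AA+CHIR dots at 118 and 126 CPM lie higher still.

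EGLN1 (chromosome 1, 231363751 to 231425044), the main prolyl hydroxylase that marks HIF and itself a HIF target, stood just outside the threshold. Its levels were 24.8 and 25.6 CPM with JNJ+CHIR against 12.0 and 12.9 CPM with CHIR and 13.5 CPM in both BRD+CHIR libraries. Both groups were tight and did not overlap, and the libraries with no agent (11.3 and 10.9 CPM) and with AA+CHIR (11.3 and 8.55 CPM) lay below the JNJ-free ones. The log2 change of 0.96 ± 0.17 had an adjusted p of 0.0541, and it passed in 6 of 17 alternative settings, with adjusted p from 0.00369 to 0.527.

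HTD2 (chromosome 3, 58306262 to 58318574), a mitochondrial fatty acid synthesis enzyme, measured 7.44 and 8.93 CPM with JNJ+CHIR against 19.3 and 18 CPM with CHIR and 17.1 and 19.7 CPM with BRD+CHIR. Its log2 change was -1.18 ± 0.19 (adjusted p = 0.0243). It lies on the same strand within RPP14 (58306247 to 58324695), a ribonuclease P subunit, so reads can be divided between the 2 genes. RPP14 alone overlapped between the groups, at 21.7 and 16.4 CPM against 18.5, 20.5, 16.4 and 10.3 CPM. The sum of both genes was 29.1 and 25.4 CPM against 37.8, 38.5, 33.5 and 30.0 CPM, with a log2 change of -0.35 and an adjusted p of 0.974, and it still lay below all 4 JNJ-free libraries in both JNJ+CHIR libraries. RIMBP3 (chromosome 22, 18605815 to 18611919), which falls outside the naming rule for its low level, had 0 CPM in both JNJ+CHIR libraries against 2.75, 2.37, 2.15 and 2.03 CPM (adjusted p = 0.0243). It has near-identical copies, and summed with RIMBP3B it measured 2.20 and 2.09 CPM against 5.50, 2.37, 2.15 and 2.91 CPM (adjusted p = 0.977). This sum is not complete, since RIMBP3C and any further copies are not in it. The sums were chosen after seeing the data. HTD2 and RIMBP3 are accordingly given as values only.

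Genes that HIF raises were followed as a list of 37, of which 36 were in the table and tested. Of these, 3 passed the test as higher and none as lower, against 0.0271% higher and 0.0135% lower over all genes tested. The 3 are DDIT4, BNIP3 and KDM3A, the genes that mark the comparison. They are also the only calls of the mTOR, mitophagy and dioxygenase lists below, so those calls add no further genes. In 13 members (36.1%) both JNJ+CHIR libraries lay above all 4 JNJ-free libraries and in 0 below, against 7.21% above and 7.58% below over all genes tested. The median log2 change was 0.15, beside 0.00 over all genes tested. This list and the others were chosen with earlier results of these data known, so these shares are descriptive and not an independent test.

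Of the 36 tested members, 25 had a positive log2 change at 6 h and the rest did not, against 7392 positive of all 14780 genes tested. Beyond the called members, the remaining ones also differed widely in size. The uncalled members given a log2 change in this paragraph are all from the positive side. BHLHE40, a transcriptional repressor of the clock and stress circuits, had 11.4 and 13.4 CPM against 6.73, 5.35, 7.37 and 6.50 CPM, with no overlap (log2 change 0.94, adjusted p = 0.355). AA+CHIR cells had more of it, at 16.5 and 16.3 CPM. STC1, a secreted glycoprotein, had 17.1 and 23.7 CPM against 15.1, 13, 12.5 and 11.6 CPM (0.65, adjusted p = 0.765), and its relative STC2 had 151 and 143 CPM against 117, 131, 116 and 117 CPM (0.29, adjusted p = 0.698). P4HA1, a collagen prolyl hydroxylase, was at 43.8 and 48.6 CPM against 38.3, 42.8, 39.5 and 33.2 CPM (0.26, adjusted p = 0.973). None of these passed the test. Cells with no agent had 25.6 and 23.3 CPM of STC1, overlapping the JNJ+CHIR libraries. Their levels of BHLHE40 (4.70 and 4.65 CPM), STC2 (87.7 and 81.1 CPM) and P4HA1 (29.9 and 24.9 CPM) were below both JNJ+CHIR libraries.

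VEGFA, the angiogenic growth factor often read as a hypoxia reporter, overlapped between groups, at 100.1 and 106 CPM against 96.2, 94.1, 104 and 92.5 CPM (log2 change 0.09, adjusted p = 0.980). BNIP3L, the close relative of BNIP3, also overlapped, at 67.6 and 62.5 CPM against 50.9, 64.4, 58.7 and 65.3 CPM (0.12, adjusted p = 0.980). The carbonic anhydrase CA9 and ANGPTL4, a lipase inhibitor, were under 3 CPM in all 6 libraries, where the counts give wide intervals.

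**Figure D3:**
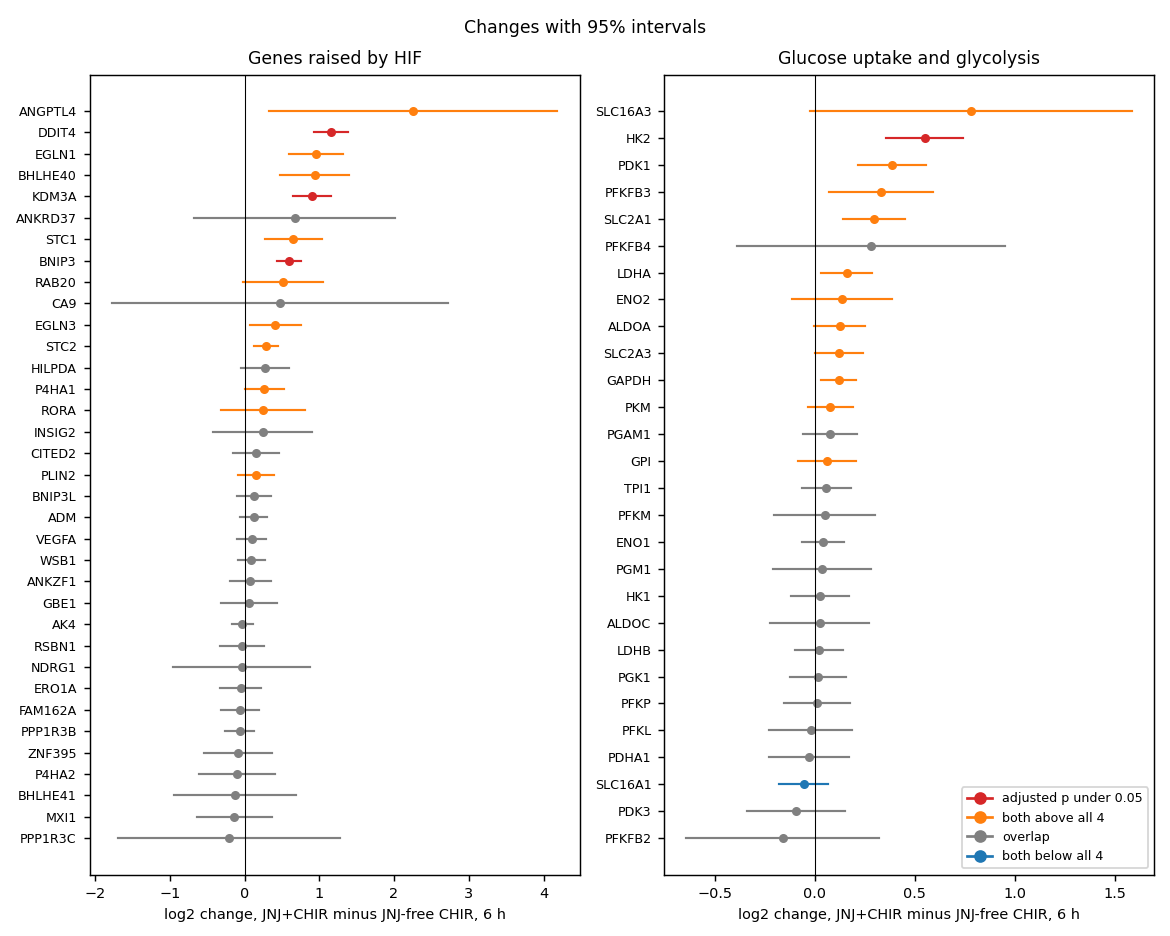
Log2 change at 6 h with its 95% interval (horizontal axis) for 35 of the 36 tested genes that HIF raises (left) and 28 genes of glucose uptake and glycolysis (right). The left panel spans a wider axis than the right. Red marks an adjusted p under 0.05, orange and blue mark members whose JNJ+CHIR libraries lie both above or both below all 4 others, and grey marks overlap.

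Glucose uptake and glycolysis genes (28 listed, all tested) included 1 call, HK2. In 12 members (42.9%) both JNJ+CHIR libraries were above all 4 others and in 1 below, against 7.21% above and 7.58% below over all genes tested. The median log2 change was 0.06. PDK1, a kinase that inhibits pyruvate dehydrogenase, had 107 and 115 CPM against 82.3, 88.8, 82.4 and 85.6 CPM (0.39 ± 0.08, adjusted p = 0.175). In cells with no agent PDK1 was at 35.1 and 35.8 CPM, below every CHIR library. The glucose transporter SLC2A1 had 455 and 437 CPM against 357, 383, 377 and 334 CPM (0.30 ± 0.07, adjusted p = 0.482).

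Abundant enzymes of the pathway moved little. GAPDH stood at 4135 and 4016 CPM against 3901, 3733, 3753 and 3614 CPM, a log2 change of 0.12 with a 95% interval of 0.03 to 0.21 (adjusted p = 0.973). LDHA, which turns pyruvate into lactate, was at 843 and 799 CPM against 714, 784, 739 and 702 CPM (0.16, adjusted p = 0.973). PGK1 overlapped, at 639 and 655 CPM against 598, 697, 641 and 626 CPM, with a log2 change of 0.01 and a 95% interval of -0.12 to 0.15. The same list compared between the controls, BRD+CHIR minus CHIR, had a median of -0.05. Of its 28 members 6 (21.4%) were positive in that contrast, against 49.4% over all genes tested. Both BRD+CHIR libraries lay above both CHIR libraries in 2 members, and in 16.1% of all genes tested.

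The oxygen-sensing components themselves gave no call in 17 members. HIF1A, the alpha subunit that is regulated mainly as a protein, overlapped at 164 and 166 CPM against 188, 165, 163 and 199 CPM (log2 change -0.12). VHL, the substrate receptor of the ligase, had 50.3 and 60.6 CPM against 60.2, 66.4, 59.4 and 58.8 CPM (-0.14). In 5 members (29.4%) both JNJ+CHIR libraries were above all others and in 0 below, against 7.21% and 7.58% over all genes tested, with EGLN1 and EGLN3 among the 5. Between the controls, both BRD+CHIR libraries lay above both CHIR libraries in 4 of the 17 members, and in 2386 of all 14780 genes tested. EGLN3 had 26.0 and 25.4 CPM against 15.7, 19.9, 24.6 and 17.5 CPM (0.41, adjusted p = 0.973). Cells with no agent had 24.2 and 25.9 CPM of EGLN3, overlapping the JNJ+CHIR libraries. Median log2 change was -0.01.

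Dioxygenases that use oxygen and 2-oxoglutarate (38 listed, 37 tested) included KDM3A as their only call. Both JNJ+CHIR libraries were above all others in 4 members (10.8%) and below in 5 (13.5%), near the 7.21% and 7.58% over all genes tested, with a median of 0.01. The RNA demethylase FTO had 53.1 and 53.4 CPM against 61.2, 62.9, 62.4 and 72.4 CPM (-0.28, adjusted p = 0.973), and KDM5A, an H3 lysine 4 demethylase, 79.0 and 85.0 CPM against 98.5, 96.2, 86.6 and 92.8 CPM (-0.19, adjusted p = 0.973).

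Among mTOR complex 1 regulators (21 listed, 20 tested) the called member was DDIT4. RHEB, the small GTPase that activates the complex, had 121 and 111 CPM against 96.5, 105, 96.0 and 95.9 CPM (0.24, adjusted p = 0.973), and MTOR itself overlapped (-0.09). Of 18 mitophagy and autophagy genes BNIP3 passed, and the medians of both lists were 0.01 and 0.06. PINK1, a kinase that flags damaged mitochondria, overlapped between the groups.

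**Figure D4:**
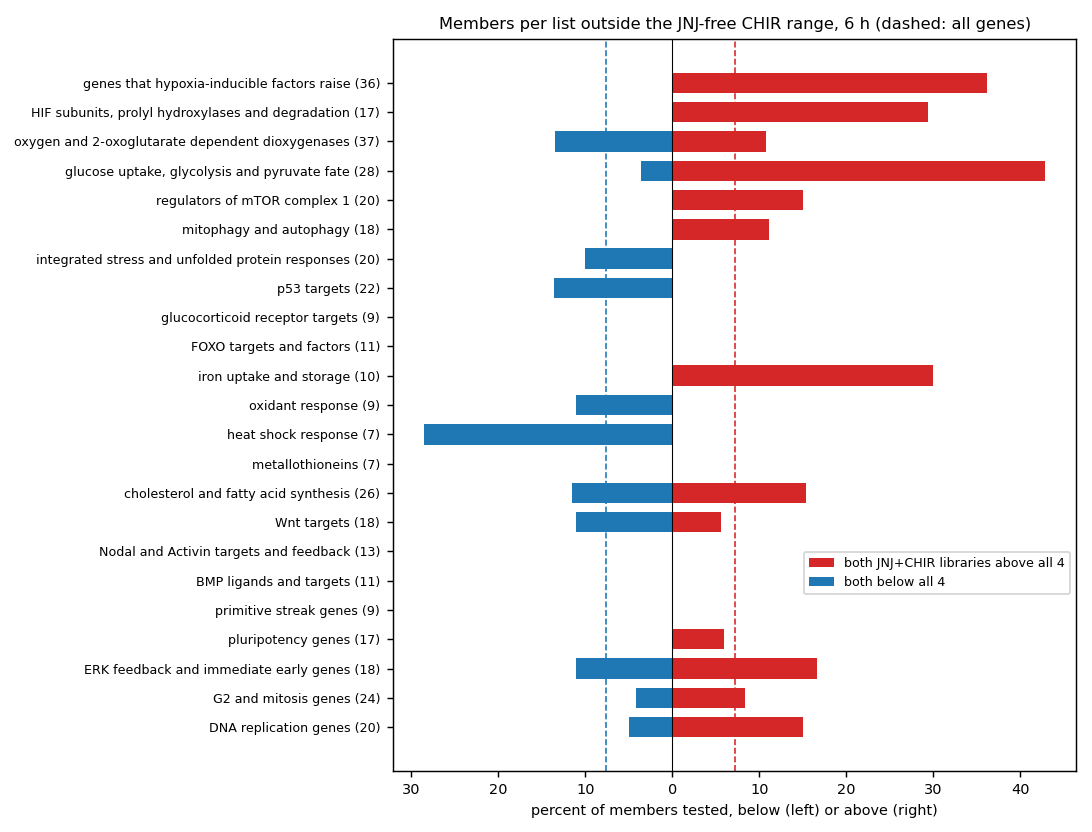
Share of each list's tested members (number in brackets) whose 2 JNJ+CHIR libraries both lie above (right, red) or below (left, blue) all 4 JNJ-free libraries at 6 h, in percent. Dashed lines mark 7.21% above and 7.58% below over all genes tested. Glycolysis (42.9%) and genes raised by HIF (36.1%) have the longest bars to the right, and lists of few members move in large steps.

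No gene was called in the remaining lists. These were p53 targets (22 tested, median -0.14), the integrated stress and unfolded protein responses (20, 0.02), glucocorticoid receptor targets (9, 0.03), FOXO targets (11, -0.07), iron handling (10, 0.06), oxidant response (9, 0.01), heat shock (7, 0.03), metallothioneins (7, -0.11) and sterol and fatty acid synthesis (26, 0.05). CDKN1A, the p53-induced cell cycle inhibitor, had a log2 change of -0.58 and was 1 of 3 p53 targets (13.6%) below all JNJ-free libraries, against 7.58% over all genes tested. Cell cycle lists gave no call either, with a median of 0.01 over 24 genes of G2 and mitosis and 0.03 over 20 of DNA replication, and ERK feedback genes (18) had a median of 0.01.

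Developmental genes gave no call: Wnt targets (18 tested, median -0.11), Nodal and Activin targets (13, 0.00), BMP ligands and targets (11, 0.06), primitive streak genes (9, -0.09) and pluripotency genes (17, 0.01). POU5F1, a core pluripotency factor, had 819 and 780.0 CPM against 755, 783, 747 and 774 CPM, with a 95% interval of the log2 change from -0.05 to 0.18. EOMES, the T-box factor needed for endoderm, had 38.5 and 36.1 CPM against 42.3, 45.0, 33 and 43.5 CPM (-0.39 to 0.14). The Wnt targets AXIN2 and SP5 had log2 changes of -0.03 (-0.24 to 0.17) and 0.00 (-0.28 to 0.27). Nodal, the ligand whose pathway Activin A engages, had 71.9 and 84.5 CPM against 101, 84.5, 73.7 and 77.8 CPM (-0.30 to 0.10). TBXT, MIXL1 and LEFTY1 were under 7 CPM in all 6 libraries, with overlapping groups.

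Further genes close to the threshold are given as values. MT-ND4L, a mitochondrially encoded subunit of respiratory complex I, had 934 and 825 CPM against 695, 711, 760 and 700 CPM (0.30, adjusted p = 0.321), and MT-CYB of complex III had 3089 and 2854 CPM against 2716, 2542, 2574 and 2594 CPM (0.19, adjusted p = 0.482). With no agent MT-ND4L (837 and 722 CPM) and MT-CYB (2731 and 2865 CPM) overlapped the JNJ+CHIR values. In AA+CHIR cells MT-ND4L (858 and 827 CPM) overlapped them too, while MT-CYB (2845 and 2790 CPM) was below. ALG3, a glycosyltransferase, and the histone gene H2BC6 also had both libraries above all others (0.40 and 0.29). On the lower side NEDD9, an adhesion scaffold, had 6.22 and 6.04 CPM against 13.7, 11.7, 12.5 and 10.8 CPM (-0.99, adjusted p = 0.221). The selenoprotein SELENOM (-1.01), TLNRD1 (-0.63) and LRAT, a retinol esterifying enzyme (-0.36), were likewise below all others. U2AF1L5, RGPD6 and SMIM11A have near-identical copies elsewhere in the genome and CFAP298-TCP10L is a readthrough, so their lower values (-2.04, -2.72, -2.27 and -0.57) are uncertain. For SMIM11A the value also turned on the control: it had 0.683 and 0.885 CPM with JNJ+CHIR against 1.22 and 1.30 CPM with CHIR and 10.8 and 12.1 CPM with BRD+CHIR, and its log2 change ran from -3.85 to -0.68 over the 17 alternative settings.

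Depth at 6 h was 10.8 to 17.2 M (mega) counts a library, and 95.7% of the 11020 genes of at least 5 CPM had a 95% interval of the JNJ change lying within 2-fold. JNJ+CHIR libraries carried 4.90% and 4.79% mitochondrial mRNA against 4.51% to 4.66% in the JNJ-free ones, a gap without overlap whose part in the results was not tested. The AA+CHIR libraries, at 4.77% and 4.83%, overlapped the JNJ+CHIR ones, and those with no agent had 4.77% and 4.62%. Summed stem cell markers were at 3765 to 3843 against 3658 to 3791 CPM. Mesoderm markers (5 of 6 in the table, MESP1 at 0) summed to 45.3 to 55.5 against 57.9 to 63.1 CPM without overlap, mostly KDR, and their part was not tested. Definitive endoderm markers summed to at most 1.69 CPM in these libraries, with SOX17 at 0, so at 6 h the cells named for endoderm carried almost none of its RNA. Neuroectoderm (1.06 to 1.77 against 1.02 to 2.21 CPM; 3 of 6 in the table), amnion (14.2 to 17.9 against 13.4 to 19.1 CPM) and fibroblast markers (112 to 125 against 106 to 113 CPM) overlapped. In bulk RNA, a change in the number of cells of a kind and a change in RNA per cell cannot be told apart.

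The controls were compared with each other because the comparison pools them. BRD+CHIR against CHIR gave 0 calls in edgeR (0% of 14780, with 377 or 2.55% at an unadjusted p under 0.05), 1 in DESeq2 and 0 in limma-voom. DDIT4, BNIP3 and HK2 had log2 changes of -0.07, -0.14 and -0.08 with BRD, and KDM3A 0.38.

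By 24 h, measured in another numbered library series with 2 libraries a group, the same 4 genes were called again and the response was broader. Of 15319 genes 67 were called (0.437%), 49 higher (0.32%) and 18 lower (0.118%), and DDIT4, BNIP3, KDM3A and HK2 were the 4 genes called at both times. An unadjusted p under 0.05 was found for 8.98% of genes. DESeq2 called 395, of which 214 were lower. Leaving out JNJ+CHIR replicate 1 gave 125 calls, 70 of them lower, and leaving out CHIR replicate 1 gave 107. Among genes that HIF raises 9 of 36 were called as higher, with a median of 0.79, and among glycolysis genes 16 of 28, with a median of 0.45. Both JNJ+CHIR libraries lay above all 4 others in 24 and 21 members of these lists and below in 0, against 8.87% above and 8.79% below over all genes tested, whose median was 0.00. Other lists moved down. Of 20 integrated stress and unfolded protein response genes, 12 lay below all 4 and 1 above, with a median of -0.25 and 1 called as lower. Called as lower were also 2 of 19 Wnt targets, 1 of 13 Nodal and Activin targets, 1 of 7 heat shock genes and 1 of 5 endoderm markers. None in these lists was called as higher. Time and library series cannot be told apart for levels, and the within-series change was therefore compared.

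DDIT4 at 24 h had 76.6 and 86.7 CPM against 45.8, 41.0, 44.4 and 34.0 CPM (log2 change 0.98 ± 0.16, adjusted p = 0.00207). Its change differed from that at 6 h by -0.18 (95% interval -0.58 to 0.21, adjusted p = 0.867). KDM3A had 137 and 151 CPM against 82.3, 73.5, 83.5 and 82.3 CPM (0.84), a difference of -0.07 (-0.46 to 0.33, adjusted p = 0.989). For these genes no difference between the times was detected, within intervals that still allow moderate ones.

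BNIP3 had 716 and 774 CPM at 24 h against 340, 311, 344 and 337 CPM, a log2 change of 1.16 that exceeded the one at 6 h by 0.57 ± 0.10 (adjusted p = 0.0373). That call was lost in 10 of 17 settings, among them each JNJ+CHIR library of 6 h left out (0.53, adjusted p = 0.261 without replicate 1, and 0.61, adjusted p = 0.101 without replicate 2) and the replicate block (0.56, adjusted p = 0.0556). HK2 went from 0.55 to 0.99, and the difference of 0.43 had an adjusted p of 0.395. EGLN1 had 62.6 and 52.7 CPM against 21.0, 24.3, 34.5 and 21.8 CPM at 24 h (1.19, adjusted p = 0.00564), a call lost without JNJ+CHIR replicate 1 (adjusted p = 0.0616).

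Genes of 3 glycolytic enzymes were called for a larger change at 24 h than at 6 h. LDHA had 949 and 1057 CPM against 519, 495, 519 and 472 CPM at 24 h, and its change exceeded that at 6 h by 0.83 ± 0.09 (adjusted p = 0.000475). PGK1 had 399 and 408 CPM against 236, 237, 247 and 232 CPM, a difference of 0.74 ± 0.09 (adjusted p = 0.000784). TPI1, an isomerase of the pathway, had 1185 and 1138 CPM against 777, 695, 768 and 718 CPM, a difference of 0.58 ± 0.09 (adjusted p = 0.00799). LDHA and PGK1 passed in all 17 settings, and TPI1 in 16, missing without JNJ+CHIR replicate 2 of 6 h (adjusted p = 0.0594). In all, 13 of 15660 genes (0.083%) were called for a difference between times, 7 higher (0.0447%) and 6 lower (0.0383%) at 24 h, and 1304 (8.33%) had an unadjusted p under 0.05. The count reached 102 without JNJ+CHIR replicate 1 of 24 h and 84 in DESeq2.

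**Figure D5:**
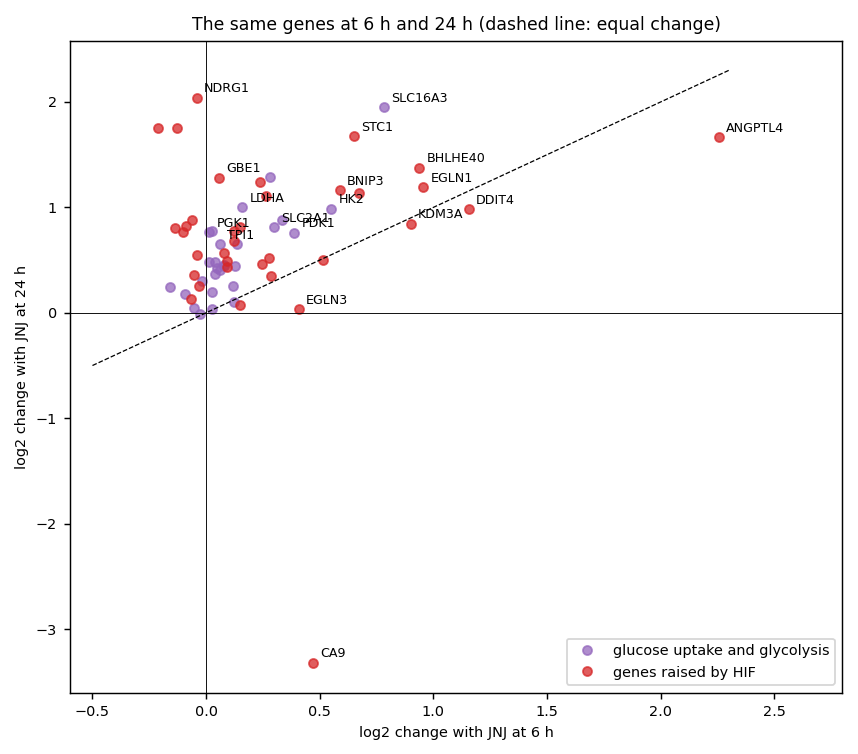
Log2 change with JNJ at 24 h (vertical axis) against that at 6 h (horizontal axis) for 35 of the 36 tested genes that HIF raises and 28 glycolysis genes, with a dashed line of equal change. LDHA, PGK1 and TPI1 lie near 0 at 6 h and above it at 24 h, DDIT4 and KDM3A lie close to the line, and CA9, at the bottom, had at most 0.999 CPM in these 24 h libraries.

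In sorted endoderm at 72 h, where cells had JNJ throughout and CHIR on the opening day, DDIT4 was at 41.3 and 31.2 CPM against 29.7 and 35.9 CPM with Activin A and 28.2 and 40.7 CPM with BRD, so the groups overlapped. KDM3A was at 141 and 147 CPM against 98.5 and 90.9 CPM with Activin A, and between the BRD libraries at 115 and 167 CPM. BNIP3 overlapped among the 3, at 549 and 639 CPM with JNJ, 618 and 564 CPM with Activin A and 453 and 616 CPM with BRD. A further sorted group, labelled BLoA, was below both JNJ libraries for all of these genes. It had 22.9 and 22.8 CPM of DDIT4, 125 and 116 CPM of KDM3A, and 336 and 333 CPM of BNIP3. These sorted cells are a different population and were not tested against the 6 h samples.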

How the data were processed

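Per the labels, bulk RNA was extracted with Trizol. The authors deposited expected counts per gene (42.9% of the values are fractional) for 16103 genes in 30 libraries, and 0 columns lacked a sample. The submitters' processing notes list GRCh38, Salmon 1.4.0, limma 3.48.1, edgeR 3.34.0, Seurat 4.0.2 and Cell Ranger, without saying what each did. Single-cell files were not used here.

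Rounded to whole numbers, they were tested two-sided with glmQLFit and glmQLFTest of edgeR 4.0.16 under R 4.3.3, after filterByExpr and TMM scaling, at a false discovery rate of 0.05. DESeq2 1.42.0, limma 3.58.1 (voom), no filter, other scaling, leaving out each library, other controls and a replicate block were alternatives. Dividing a log2 change by the root of its F statistic gave the SE. The 6 h, 24 h and combined fits used 10, 8 and 18 libraries, with 5, 4 and 9 residual degrees of freedom and biological coefficients of variation of 0.154, 0.457 and 0.318. The comparison, its marker genes and the 29 gene lists were chosen with earlier results of these data known.

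Named were the 3 markers; called genes of at least 5 CPM without overlap, up to 10 in each direction; the 4 members of smallest p of lists with a call; the 8 of smallest p among HIF-raised, glycolysis and dioxygenase genes; 10 stage genes; and 8 uncalled genes in each direction without overlap. Members named to complete a list (VEGFA, BNIP3L, PGK1, TPI1, HIF1A, VHL, CA9, ANGPTL4, CDKN1A, PINK1 and KDR) were chosen after their values were seen. The values of 1 gene that HIF raises are not reported here and it is not drawn, though it is included in the counts and medians.

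In simulated data where 200 genes of at least 5 CPM changed, the 6 h fit recovered 47.8%, 88.1% and 100% of 1.5-fold, 2-fold and 4-fold changes, with 7.10% of its calls false. The real 6 h test called 6 genes. With fewer changed genes the adjustment is stricter, so these rates can overstate what the real test would recover. Promoters are RefSeq's and matched 42 of 53 named genes. Figures used Python 3.11.15 and matplotlib 3.10.9.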

Additional observations from a re-analysis of the deposited data

Results flagged for a closer look

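In 3 of 53 groups of 4 JNJ-free libraries examined at 6 h, 1 library stood far from the other 3; chance gives about 1 in 20. STC2 was at 130.6 CPM in CHIR replicate 2 against 116 to 117 CPM in the others, and RHEB at 104.7 CPM in the same library against 95.9 to 96.5 CPM. FTO was at 72.4 CPM in BRD+CHIR replicate 2 against 61.2 to 62.9 CPM.

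The change with JNJ differed between 24 h and 6 h, in edgeR's test of the difference itself, for 4 of the genes followed. The log2 differences were 0.57 for BNIP3 (adjusted p = 0.0373), 0.83 for LDHA (adjusted p = 0.000475), 0.58 for TPI1 (adjusted p = 0.00799) and 0.74 for PGK1 (adjusted p = 0.000784), each larger at 24 h. The BNIP3 difference passed in 7 of 17 alternative settings (highest adjusted p = 0.261) and the TPI1 difference in 16 of 17, lost without 6 h JNJ+CHIR replicate 2 (adjusted p = 0.0594).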

How the results depend on the processing

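With 2 libraries a group, each count moved with the settings. The 6 calls at 6 h became 14 in DESeq2 (8 higher, 6 lower), 2 with CHIR alone and 3 with BRD+CHIR alone as control, and ranged from 3 (without CHIR replicate 1 or BRD+CHIR replicate 1) to 12 (without JNJ+CHIR replicate 2) with 1 library left out. BRD+CHIR against CHIR gave 1 call in DESeq2 and 0 to 4 with a library left out. The 67 calls at 24 h became 136 without a filter and 395 in DESeq2 (181 higher, 214 lower), and ranged from 68 to 125. The 13 differences between times became 84 in DESeq2 and ranged from 7 to 102. The cause was not tested.

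Of 53 named genes, DDIT4 passed in all 17 settings, with log2 changes of 1.10 to 1.22. BNIP3 passed in 16, KDM3A in 15, HK2 in 11, RIMBP3 in 9 and HTD2 in 7. No called gene changed sign, and 10 uncalled genes did in at least 1 setting.

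Same-numbered libraries shared a number and nothing else in the labels. Their deviations correlated at -0.02 (JNJ+CHIR with CHIR), 0.01 (JNJ+CHIR with BRD+CHIR) and -0.07 (CHIR with BRD+CHIR). With a replicate block the counts were 6 at 6 h, 0 for BRD+CHIR against CHIR, 85 at 24 h and 12 for the difference.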
